A study of Mus musculus with 49 samples.

Results

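Whole ankles taken at day 7 of K/BxN serum-transfer arthritis were compared with whole ankles taken at day 3, to find which transcripts changed after joint inflammation had set in. The members are the 4 ankle arrays of day 7 and the 3 ankle arrays of day 3, chosen by their titles, and make up 7 of the 49 arrays of the series. All mice were male B6 mice of 6 weeks, those of day 7 and day 3 had both been given K/BxN serum, and the day is counted from the initial injection. RNA came from the mixed cells of the whole organ and went through 2 rounds of amplification before hybridisation to an Affymetrix expression array. Ankles of day 0 (4 arrays), day 1 (2), day 12 (3) and day 18 (3) served to place the change in time, and cells of the synovial fluid at day 7 (4 arrays) and day 3 (3) served to compare it with the cells of the joint space. The labels carry no swelling score, so day 3 and day 7 stand for onset and peak by the time course known for this model. Ankles of day 0 are the baseline of the time course, and serum-free ankles of day 3 or day 7 were not analysed here. The description of day 0 replicate 2 opens with a short code unlike its title, and its title and time label were followed. Nothing in the labels says that replicates came from separate animals, so the p-values cover the variation among these samples, which could be technical.

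K/BxN serum carries antibodies against glucose-6-phosphate isomerase, a ubiquitous enzyme that accumulates on joint surfaces, where the immune complexes act through complement and Fc receptors. Neutrophils enter the joint, interleukin-1 beta amplifies the response, and synovial fibroblasts and leukocytes secrete metalloproteinases that cut collagen and proteoglycan. The RANK ligand on fibroblasts and other cells drives precursors of the macrophage lineage to become osteoclasts, the cells that resorb bone.

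Values were intensities that the authors had obtained by RMA, and all levels below are their log2. The negative controls, 34 probe sets for bacterial and yeast transcripts or the sense strand, had a 95th percentile of log2 6.85. A fold is given only where both day means lay above that level, and is called "at least" where only the brighter mean did. The medians of the 7 arrays lay between 61.3 and 64.1 on the linear scale, and arrays of 1 day correlated across probe sets at 0.964 to 0.987, against 0.964 to 0.989 between days. Of the defining markers of an ankle that were measured, Col1a1 (bone and connective tissue) stood at log2 11.51 to 12.57 and Acta1 (skeletal muscle) at log2 9.86 to 12.51. Acan (cartilage) stood at log2 5.62 to 8.62, and Col2a1, the collagen of hyaline cartilage, at log2 4.95 to 5.49, below the negative control level in every array. RNA length was judged from the beta-actin control: its 3' over its 5' probe set gave a log2 ratio of 3.52, 3.83, 3.46 and 3.34 at day 7, against 3.53, 3.60 and 3.25 at day 3. The summed intensity of 18 skeletal muscle genes varied from 3490.3 to 15558 among day 7 arrays and from 4585.8 to 15774 among day 3 arrays, a wide range on both days.

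Liver transcripts were present in replicate 1 of day 7. Albumin (Alb), the main plasma protein made by hepatocytes, stood at log2 8.41 in that array and at log2 4.61, 4.36 and 4.87 in the other day 7 arrays, against log2 5.02, 4.49 and 4.93 at day 3. Serpina1c, a liver protease inhibitor, stood at log2 10.17 in replicate 1 and at log2 6.42 to 6.69 in the other day 7 arrays, against log2 6.47 to 7.17 at day 3. Of 21 measured liver genes, 10 were at least 1 log2 unit higher in replicate 1 than in the highest of the other 6 arrays. The 10 were Alb, Serpina1c, Serpina1b, Fgg, Apoa2, Apoh, Apoa1, Mup3, Apob and Ambp. Of all 8251 genes 24 met that limit, and 0 of the genes that changed between the days did. No liver gene passed the test between the days (adjusted p = 0.999 for each). Without the ankle arrays with Alb over log2 6, Mup3 was lower at day 7, by -1.37 (adjusted p = 0.0351). Ankle arrays of day 0, day 1 and day 12 included another 3 with Alb over log2 6, all of them replicate 1.

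**Figure D1:**
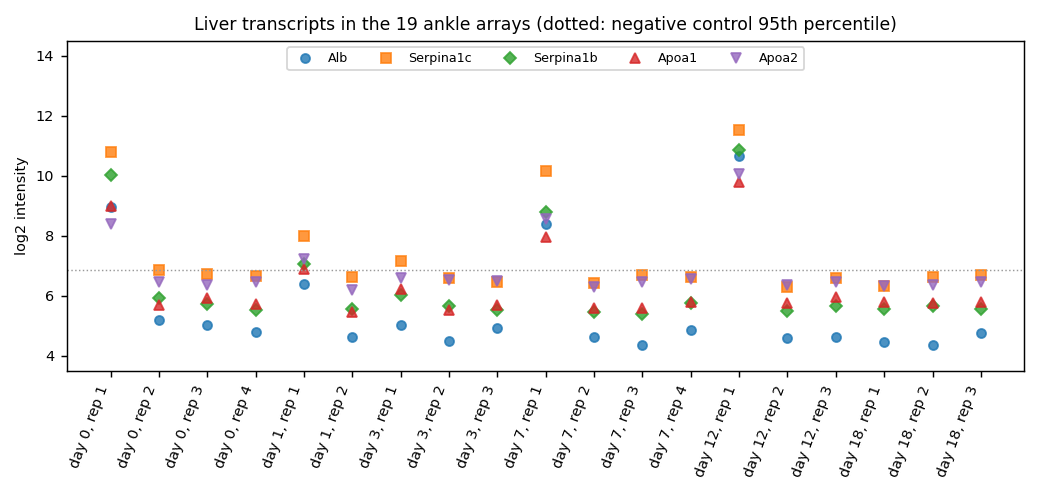
Log2 intensity of 5 liver transcripts in each of the 19 ankle arrays, in order of day. Replicate 1 of days 0, 1, 7 and 12 stands above the other arrays, and at day 7 Alb reached 8.41 in replicate 1 against 4.36 to 4.87 in replicates 2 to 4.

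The comparison gave a small set of genes. Of 8251 genes 42 changed between the days (0.509%), of which 29 were higher at day 7 (0.351%) and 13 were lower (0.158%), by limma with Benjamini-Hochberg adjustment and a threshold of 0.05. At an unadjusted p under 0.05 there were 442. Among the rises were secreted regulators and metalloproteinases (C1qtnf3, Mmp9, Mmp13), and among the falls extracellular matrix genes (Tnxb, Cilp2, Lamb2). In each of the 42, all day 7 arrays lay on 1 side of all day 3 arrays. Among all genes 250 had every day 7 array above every day 3 array (3.03%), and 183 had every day 7 array below (2.22%). The median difference of all genes was 0.01, and the middle 95% of genes lay between -0.44 and 0.49. Both day means exceeded the negative control level in 15 of the 42, only the brighter mean did in 13, and neither did in 14.

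The count depended on the arrays and their treatment. It was 12 without day 3 replicate 2, 23 without day 7 replicate 2, 15 with the spread estimated from the 7 compared arrays alone, 73 without the arrays that held liver transcripts, 27 with each array centred on its median and 131 with array weights. Past the threshold in every alternative were 8 genes: C1qtnf3, Crabp2, Mmp9, Mmp13, Tnc, Ccn4, S100a8 and Cilp2. All 42 kept their direction in every alternative, and 11 passed in each of the 7 fits that left out 1 array. In bulk tissue, fewer cells of a type and less RNA per cell cannot be told apart.

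**Figure D2:**
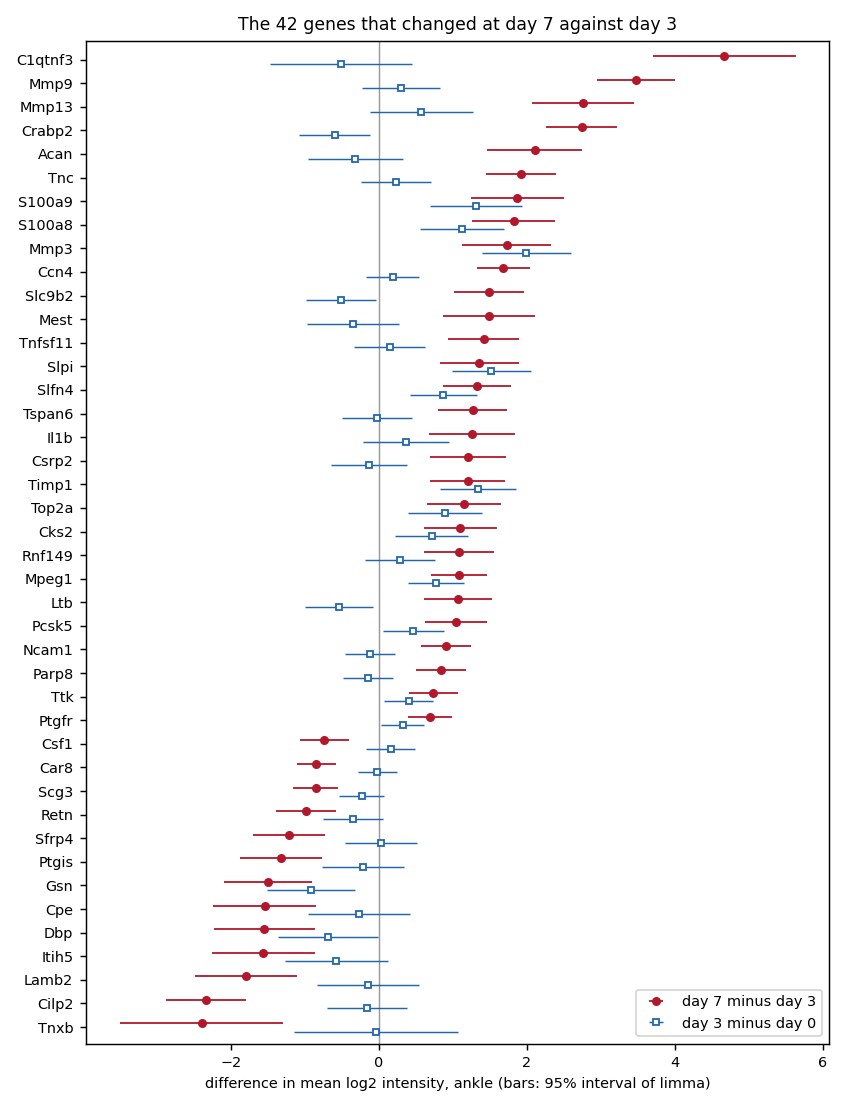
Log2 differences of the 42 changed genes, day 7 minus day 3 (red circles) and day 3 minus day 0 (blue squares), with 95% intervals of limma. The red points run from 4.67 (C1qtnf3) to -2.40 (Tnxb), and for 25 genes the blue point lies within 0.5 of zero. Both differences use the day 3 arrays.

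Metalloproteinases and their inhibitor held more changed genes than any other list. Of 16 measured genes of matrix proteases and inhibitors, 4 rose and 0 fell, with a median log2 difference of 0.17 against 0.01 for all genes. Mmp9, the gelatinase of neutrophils and osteoclasts, stood at log2 9.88, 9.58, 8.95 and 8.86 at day 7, against log2 6.00, 5.65 and 5.88 at day 3. The groups lay far apart, with a day 7 SD of 0.49 and a day 3 SD of 0.17. Its log2 difference was 3.48 ± 0.25 (SE of limma, adjusted p = 4.77e-07, at least 5.53-fold), and a separate Mmp9 probe set gave 2.21. Mmp13, the main collagenase of the mouse joint, stood at log2 6.98, 7.41, 7.17 and 7.43 at day 7, against log2 4.32, 4.70 and 4.45 at day 3. Its day 3 level was still below the negative controls and its day 7 level just above them, with a log2 difference of 2.76 ± 0.33 (adjusted p = 0.000169, at least 1.32-fold). Mmp3, stromelysin 1, which cuts proteoglycans and activates other metalloproteinases, stood at log2 11.13, 10.45, 10.69 and 10.63 at day 7, against log2 9.61, 8.35 and 9.03 at day 3. Unlike Mmp9 it was already bright at day 3, and its log2 difference was 1.73 ± 0.29 (adjusted p = 0.00644, 3.31-fold). Timp1, a tissue inhibitor of metalloproteinases, averaged log2 12.72 ± 0.35 at day 7 (SD, n = 4) and 11.52 ± 0.54 at day 3 (SD, n = 3). It differed by 1.2 ± 0.24 (2.29-fold, adjusted p = 0.0303), and its other probe set by 0.08. Of the members that did not pass, Mmp14 differed by 0.62 and Mmp2 by 0.47 (log2), Mmp8 by 0.23, and Timp3 by -0.60.

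The promoters of Mmp3 and Mmp13 are shown because both genes are textbook targets of AP-1, a factor that binds the motif TGANTCA. The windows run from 250 bases before to 50 after the start of the transcript in RefSeq (GRCm38.p6), with the motif in capitals; Mmp3 is chr9:7445572-7445871 and Mmp13 is chr9:7272264-7272563, both on the plus strand.
Mmp3: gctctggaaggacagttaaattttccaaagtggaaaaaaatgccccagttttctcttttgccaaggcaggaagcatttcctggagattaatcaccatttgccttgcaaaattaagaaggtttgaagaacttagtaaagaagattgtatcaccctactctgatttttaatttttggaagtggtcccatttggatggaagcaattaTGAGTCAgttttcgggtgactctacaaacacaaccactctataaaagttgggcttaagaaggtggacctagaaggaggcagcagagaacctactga
Mmp13: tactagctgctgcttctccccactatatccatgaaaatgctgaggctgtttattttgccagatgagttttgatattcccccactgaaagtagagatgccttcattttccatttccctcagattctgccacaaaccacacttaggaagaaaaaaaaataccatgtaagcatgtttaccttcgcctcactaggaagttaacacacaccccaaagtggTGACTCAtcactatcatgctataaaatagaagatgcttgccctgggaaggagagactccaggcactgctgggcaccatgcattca
The motif began 46 bases before the start in Mmp3 and 35 bases before it in Mmp13. TGANTCA is its own reverse complement, so a match has no strand. Searched on both strands, it was present in 2565 of 32851 promoter windows (7.81%). Of the 42 changed genes 33 had a window, 38 windows in all, and 4 of these windows held it, in Mmp3, Mmp13, Slfn4 and Tnxb. A match of letters is a description of the window and not a binding site.

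Neutrophil and myeloid transcripts passed the test for a few members only. Of 13 measured mature neutrophil genes, 3 rose (Mmp9, S100a8 and S100a9) and 0 fell, with a median log2 difference of 0.23. S100a8 and S100a9 encode calprotectin, the abundant calcium-binding protein of the neutrophil cytosol. S100a8 stood at log2 10.31, 10.26, 9.41 and 9.58 at day 7, against log2 8.38, 7.93 and 7.90 at day 3. The lowest day 7 array was above the highest day 3 array, and the log2 difference was 1.82 ± 0.27 (adjusted p = 0.00234, 3.53-fold). S100a9 stood at log2 10.18, 9.97, 9.40 and 9.45 at day 7, against log2 8.60, 7.43 and 7.62 at day 3, a difference of 1.87 ± 0.30 (adjusted p = 0.00481, 3.65-fold). The other members did not pass and had log2 differences from -0.26 (Wfdc21) to 1.24 (Clec4d, a C-type lectin receptor of myeloid cells, adjusted p = 0.0901), with 0.64 for the formyl peptide receptor Fpr2, 0.41 for the G-CSF receptor Csf3r, 0.23 for the granule collagenase Mmp8 and 0.01 for Ly6g. Of the 13 genes 8 had a day mean above the negative controls. Fpr2, Mmp8 and Ly6g lay below that level on both days, so their small differences do not show that they were unchanged. Slfn4, a Schlafen gene of myeloid cells, averaged log2 7.72 ± 0.35 at day 7 (SD, n = 4) and 6.39 ± 0.15 at day 3 (SD, n = 3), and rose by 1.33 (adjusted p = 0.00567, at least 1.83-fold). Slpi, an inhibitor of neutrophil elastase, rose by 1.36 ± 0.26 on the log2 scale (adjusted p = 0.0189, 2.56-fold), with 0.25 to 1.87 for its other 3 probe sets. Mpeg1, the macrophage pore-forming protein perforin-2, rose by 1.08 (2.12-fold, adjusted p = 0.00648), against -0.01 for its other probe set. Of 14 measured monocyte and macrophage genes, 0 rose and 0 fell, with log2 differences from -0.99 (Mrc1, the mannose receptor) to 0.38 (Apoe) and a median of 0.04.

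Among cytokines Il1b and Ltb rose, and no chemokine passed the test. Il1b, encoding interleukin-1 beta, stood at log2 6.91, 6.88, 6.56 and 6.55 at day 7, against log2 5.67, 5.38 and 5.33 at day 3. The groups did not overlap, both means lay below the negative controls, and the log2 difference was 1.26 ± 0.28 (adjusted p = 0.0494). This was the least stable call: it was lost in each fit that left out 1 of the 7 arrays, and 5 of 18 alternatives kept it. Of 10 measured genes of the interleukin 1 family, 1 rose and 0 fell, with 1.12 for the receptor antagonist Il1rn and 0.74 for the receptor Il1r1 (log2, adjusted p = 0.202 and 0.538). Ltb, the membrane anchor of lymphotoxin, stood at log2 6.42, 5.68, 6.16 and 6.36 at day 7, against log2 5.33, 5.09 and 4.83 at day 3. It differed by 1.07 ± 0.22 (adjusted p = 0.0303), and with the replicate number as a block the adjusted p was 0.0645. The day 0 mean of Ltb was log2 5.63, above its day 3 mean of 5.08. Its day 7 minus day 0 difference of 0.53 did not pass (adjusted p = 0.142), and its means on these days lay below the negative controls. Of 13 measured TNF and interleukin 6 type genes Ltb was the 1 that passed, with log2 differences of 0.15 for Il6 and -0.06 for Tnf. Of the 13 genes 5 had a day mean above the negative controls. Il6 and Tnf lay below that level on both days, so their small differences do not show that they were unchanged. The CXCR2 ligand Cxcl5, a neutrophil attractant, stood at log2 6.37, 7.16, 8.23 and 6.08 at day 7, against log2 4.95, 4.72 and 5.15 at day 3. It lay above day 3 in each day 7 array but varied among them, and the log2 difference of 2.02 ± 0.45 did not pass (adjusted p = 0.0579), while with the replicate number as a block it did (adjusted p = 0.0106). The ligands Cxcl1 and Cxcl2 had log2 differences of 1.09 and 0.88 (adjusted p = 0.791 and 0.182), with both means of Cxcl2 below the negative controls. The receptor gene Cxcr2 averaged log2 4.04 at day 7 and 3.92 at day 3, below the negative control level. Of 14 measured CC chemokines, 0 passed and 6 were above zero, with log2 differences from -0.48 (Ccl6) to 0.43 (Ccl5). A day mean above the negative controls was found for 5 of the 14, and Ccl5 was not among them.

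Genes that govern bone and macrophage growth moved in both directions. Tnfsf11, the RANK ligand that induces osteoclasts, stood at log2 5.15, 4.81, 5.19 and 5.14 at day 7, against log2 3.70, 3.46 and 3.82 at day 3. All 7 values lay below the negative control level, so no fold is given, and the log2 difference was 1.41 ± 0.23 (adjusted p = 0.00493). Its decoy receptor Tnfrsf11b differed by 0.15 and its receptor Tnfrsf11a by 0.06 on the log2 scale, neither past the threshold. The means of both also lay below the negative control level on both days. Of 12 measured osteoclast genes, 2 rose (Mmp9 and Tnfsf11), and the resorption genes Acp5 (0.91) and Ctsk (0.30) did not pass (log2, adjusted p = 0.169 and 0.999). Slc9b2, a sodium-proton exchanger abundant in osteoclasts, stood at log2 6.17, 6.40, 5.14 and 5.52 at day 7, against log2 4.23, 4.46 and 4.28 at day 3. It rose by 1.48 ± 0.23 on the log2 scale (adjusted p = 0.00297), also below the negative controls on both days. Csf1, the growth factor of macrophages, fell: it stood at log2 8.39, 8.17, 8.08 and 7.95 at day 7, against log2 9.17, 9.02 and 8.48 at day 3. The nearest arrays of the groups were 8.39 and 8.48, and the log2 difference was -0.74 ± 0.16 (adjusted p = 0.0394, 1.67-fold lower). Ccn4, a secreted Wnt target also called WISP1, stood at log2 6.64, 6.75, 5.87 and 6.26 at day 7, against log2 4.70, 4.68 and 4.71 at day 3. It rose by 1.68 ± 0.17 (adjusted p = 2.59e-05), with both means below the negative controls. Sfrp4, a secreted antagonist of Wnt, stood at log2 7.15, 7.46, 7.15 and 7.02 at day 7, against log2 8.10, 8.65 and 8.5 at day 3. It fell by 1.22 on the log2 scale (adjusted p = 0.0189, 2.33-fold lower), whereas its relative Sfrp2 differed by 0.82 without passing (adjusted p = 0.281).

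Extracellular matrix genes held both falls and rises. C1qtnf3, a secreted protein of the C1q and TNF-related family first found in cartilage, stood at log2 8.58, 9.91, 8.23 and 8.93 at day 7, against log2 3.70, 4.48 and 4.55 at day 3. It was below the negative controls in each day 3 array and well above them in each day 7 array, with a log2 difference of 4.67 ± 0.46 (adjusted p = 2.06e-05, at least 4.18-fold). Tnc, tenascin C, a matrix glycoprotein of injured and inflamed tissue, stood at log2 8.08, 8.44, 7.47 and 7.75 at day 7, against log2 6.32, 6.03 and 5.69 at day 3. It rose by 1.92 ± 0.22 (adjusted p = 0.000145, at least 2.12-fold), and its other probe set by 1.76. Its relative Tnxb, tenascin X, which organises collagen in loose connective tissue, stood at log2 10.85, 9.76, 9.0 and 8.14 at day 7, against log2 12.105, 11.99 and 11.41 at day 3. The day 7 arrays were spread widely (SD 1.15), and the log2 difference of -2.40 ± 0.53 passed narrowly (adjusted p = 0.0494, 5.27-fold lower), with -2.24 for its other probe set. It passed in 1 of the 7 fits that left out an array. Acan, aggrecan, the large proteoglycan of cartilage, stood at log2 8.62, 8.43, 6.93 and 7.4 at day 7, against log2 5.93, 5.66 and 5.62 at day 3. It rose by 2.11 ± 0.31 (adjusted p = 0.00215, at least 1.99-fold). Cilp2, cartilage intermediate layer protein 2, stood at log2 10.86, 10.39, 10.01 and 10.09 at day 7, against log2 12.50, 13.13 and 12.40 at day 3. It fell by 2.34 on the log2 scale (adjusted p = 6.55e-05, 5.05-fold lower), and its other probe set by 1.75. Of 14 measured cartilage matrix genes these were the 2 that passed, and the median log2 difference of the list was 0.00. A day mean above the negative controls was found for 5 of the 14, so this median rests mostly on values below that level. The hyaline cartilage genes Col2a1, Col9a1 and Matn1 differed by -0.05, 0.11 and -0.05 on the log2 scale. Col2a1 lay below the negative controls on both days, so its small difference does not show that it was unchanged.

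Lamb2, a laminin chain of basement membranes, stood at log2 8.36, 8.66, 7.89 and 7.3 at day 7, against log2 9.86, 10.24 and 9.46 at day 3. It fell by 1.80 on the log2 scale (adjusted p = 0.0142, 3.48-fold lower). Itih5, of a family of hyaluronan-binding proteins, fell by 1.56 (adjusted p = 0.0394), while its other probe set was higher at day 7 by 0.29, and the call was lost with the mean of both. Of 27 genes for fibrillar collagen and matrix assembly, 1 rose (Tnc) and 1 fell (Tnxb), with 20 above zero and a median log2 difference of 0.29. Among those that did not pass, Fbln2 (fibulin 2) differed by 1.01 and Lox, which cross-links collagen, by 1.00, against 0.29 for Col1a1, -0.02 for Col3a1 and -1.17 for Fmod, a collagen-binding proteoglycan. Of 13 synovial fibroblast genes Tnc was the 1 that rose, and Vcam1, the adhesion molecule of lining fibroblasts, differed by 1.23 (log2, adjusted p = 0.174; 0.0453 with the replicate number as a block). Its other probe sets differed by -0.11 to 0.15.

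Cell cycle genes lay above zero throughout, with few past the test. Of 26 measured proliferation genes, 1 rose (Top2a), 0 fell and 26 of 26 had a log2 difference above zero, with a median of 0.36 against 0.01 for all genes. Top2a, the topoisomerase that untangles replicated DNA, stood at log2 6.73, 7.59, 7.57 and 6.83 at day 7, against log2 6.06, 5.65 and 6.38 at day 3. It rose by 1.15 ± 0.24 (adjusted p = 0.0338, at least 1.26-fold). Cks2, a subunit of cyclin-dependent kinases, rose by 1.1 (adjusted p = 0.0394), and Ttk, the spindle checkpoint kinase, rose by 0.73 (adjusted p = 0.04). The means of Cks2 and of Ttk lay below the negative controls on both days. The next members by size, Cdk1 and Mad2l1, each differed by 0.83 (log2, adjusted p = 0.135 and 0.202), and Mki67 by 0.07. Of the 7 fits that left out an array, 3 kept the call of Top2a, 3 that of Cks2 and 1 that of Ttk. The promoters of these 3 genes are shown because CCAAT boxes and the CHR motif TTTGAA are the known elements of cell cycle promoters. In each window, from 250 bases before to 50 after the RefSeq start (GRCm38.p6), CCAAT and TTTGAA on either strand are in capitals, so that ATTGG and TTCAAA mark the reverse strand. Top2a is chr11:99024140-99024439 on the minus strand, Cks2 is chr13:51644982-51645281 and Ttk is chr9:83834439-83834738, both on the plus strand.
Top2a: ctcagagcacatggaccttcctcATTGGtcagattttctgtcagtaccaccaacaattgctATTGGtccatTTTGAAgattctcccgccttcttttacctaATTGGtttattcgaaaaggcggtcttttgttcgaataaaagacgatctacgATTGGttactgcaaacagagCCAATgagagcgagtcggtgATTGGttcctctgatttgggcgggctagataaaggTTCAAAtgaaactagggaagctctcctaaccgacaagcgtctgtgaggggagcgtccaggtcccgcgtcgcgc
Cks2: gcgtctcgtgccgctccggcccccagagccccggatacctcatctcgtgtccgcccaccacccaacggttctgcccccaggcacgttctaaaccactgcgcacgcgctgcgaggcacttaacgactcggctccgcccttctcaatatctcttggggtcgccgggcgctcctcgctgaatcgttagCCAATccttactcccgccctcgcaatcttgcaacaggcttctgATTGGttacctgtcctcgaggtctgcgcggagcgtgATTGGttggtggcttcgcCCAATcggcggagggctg
Ttk: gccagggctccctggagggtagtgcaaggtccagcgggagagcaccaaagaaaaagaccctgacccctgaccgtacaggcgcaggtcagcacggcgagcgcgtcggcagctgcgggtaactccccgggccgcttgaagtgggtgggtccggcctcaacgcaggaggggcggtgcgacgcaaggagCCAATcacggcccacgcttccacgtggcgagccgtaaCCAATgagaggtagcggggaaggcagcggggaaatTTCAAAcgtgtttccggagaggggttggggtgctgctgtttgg
Top2a held 6 CCAAT boxes and 2 copies of TTTGAA, Cks2 held 4 and 0, and Ttk held 2 and 1. CCAAT was present in 12289 of 32851 promoter windows (37.4%) and in 12 of the 38 windows of changed genes. TTTGAA was present in 5878 (17.9%) and in 6 of the 38.

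Lipid mediator and fat genes were among the falls, as was Dbp of the clock list. Ptgis, prostacyclin synthase, stood at log2 7.19, 7.11, 6.42 and 6.93 at day 7, against log2 8.65, 8.34 and 7.73 at day 3, and fell by 1.33 (adjusted p = 0.028, 2.51-fold lower). Ptgfr, the receptor of prostaglandin F2 alpha, stood at log2 6.61, 7.12, 6.57 and 6.72 at day 7, against log2 6.17, 6.09 and 5.94 at day 3. It rose by 0.69 (adjusted p = 0.0303), with both means below the negative controls and 0.06 for its other probe set. Ptgfr and Ptgis were the 2 of 13 leukotriene and prostaglandin genes that passed. Ptgs2, the inducible cyclooxygenase, differed by 0.05 on the log2 scale. Retn, the fat cell hormone resistin, stood at log2 6.60, 6.49, 6.74 and 6.28 at day 7, against log2 7.61, 7.85 and 7.07 at day 3. It fell by 0.98 (adjusted p = 0.0265, at least 1.58-fold lower). It was the 1 of 12 adipocyte genes that passed, and 2 of the 12 lay above zero, with a median log2 difference of -0.46. The summed intensity of these 12 genes was 2652.4 to 5159.9 in day 7 arrays, against 5203.9 to 7239.1 in day 3 arrays, and the part of fat in the ankle in this fall was not tested. Dbp, a transcription factor that follows the circadian clock, stood at log2 6.95, 6.29, 6.91 and 6.02 at day 7, against log2 8.35, 8.36 and 7.57 at day 3. It fell by 1.55 (adjusted p = 0.0358, at least 2.30-fold lower). Of 14 measured clock genes 0 rose and 1 fell, 9 lay above zero, the median log2 difference was 0.03, and the others ran from -0.93 (Nr1d1, adjusted p = 0.762) to 0.37 (Arntl, adjusted p = 0.39). The labels used here give no hour of sampling.

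Gsn, the actin-severing protein gelsolin, stood at log2 9.52, 9.70, 9.15 and 9.27 at day 7, against log2 10.92, 11.44 and 10.37 at day 3, and fell by 1.5 (adjusted p = 0.0189, 2.83-fold lower). Cpe, carboxypeptidase E of the secretory pathway, averaged log2 9.08 ± 0.64 at day 7 (SD, n = 4) and 10.62 ± 0.53 at day 3 (SD, n = 3). It fell by 1.55 (adjusted p = 0.04, 2.92-fold lower), and its other probe set by 1.76. Crabp2, which carries retinoic acid to its nuclear receptor, stood at log2 7.53, 7.03, 6.21 and 6.57 at day 7, against log2 4.34, 3.8 and 4.14 at day 3. It rose by 2.74 ± 0.23 (adjusted p = 2.69e-06), although its day 7 mean of 6.83 still lay at the negative control level. Csrp2, a LIM protein of smooth muscle, stood at log2 8.12, 8.71, 8.08 and 7.51 at day 7, against log2 7.02, 6.91 and 6.79 at day 3, and rose by 1.2 (adjusted p = 0.0303, 2.30-fold). The other rises were Mest (1.48), Tspan6 (1.27), Rnf149 (1.08), Pcsk5 (1.04), Ncam1 (0.90) and Parp8 (0.84), and the other falls Scg3 (-0.86) and Car8 (-0.85), all on the log2 scale. Mest is an imprinted gene, Pcsk5 a proprotein convertase and Ncam1 the neural cell adhesion molecule. Mest, Tspan6, Parp8, Scg3 and Car8 lay below the negative controls on both days. Other probe sets of Ncam1 differed by at most 0.39, and of Pcsk5 by 0.06 to 1.68. The rule for named genes did not reach Crabp2, Ccn4, Slc9b2, Mest, Tspan6, Cks2, Rnf149, Mpeg1, Pcsk5, Ncam1, Parp8, Ttk, Scg3, Car8 or Ccl7, which were named after their values were seen.

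Which of the 42 changed after day 3 and not before was judged from the day 3 minus day 0 difference, whose estimate shares the day 3 arrays with the day 7 minus day 3 difference. For 25 genes that earlier difference was under 0.5 on the log2 scale, and for 24 of these its 95% interval also lay within -1 and 1. The exception was Tnxb, with an interval of -1.15 to 1.06. The 24 included Mmp9 (0.29), Acan (-0.32), Tnc (0.22), Ccn4 (0.19), Tnfsf11 (0.14), Il1b (0.36), Cilp2 (-0.17), Lamb2 (-0.15), Sfrp4 (0.03), Ptgis (-0.21) and Csf1 (0.16). A further rule required the difference between the steps (later minus earlier) to pass the threshold with the sign of the later step. It left 1 gene, Mmp9, with a difference between the steps of 3.18 ± 0.44 (adjusted p = 0.00504). Missing this rule does not show that a gene changed as much before day 3 as after it. Cilp2, for example, missed it with a difference between the steps of -2.17 ± 0.45 (adjusted p = 0.126). Mmp9 failed this rule without day 3 replicate 2. Past the threshold by day 3 already were Mmp3 (1.99), Slpi (1.52) and Timp1 (1.34), which rose in both steps. S100a9 (1.31), S100a8 (1.12), Top2a (0.89), Slfn4 (0.87) and Gsn (-0.92) had day 3 minus day 0 differences of the same sign as the later one, with adjusted p from 0.0881 to 0.287.

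Over all 8251 genes the steps differed for 6 (0.0727%), and the 6 fell into opposite patterns. The count was 2 without day 3 replicate 1 or replicate 2, 3 without day 3 replicate 3 or day 0 replicate 3, 9 without day 7 replicate 3, 2 with the compared arrays alone and 41 with array weights. C1qtnf3 (5.19 ± 0.81, adjusted p = 0.015), Crabp2 (3.34 ± 0.41, adjusted p = 0.00154) and Mmp9 rose more after day 3. C1qtnf3 and Crabp2 missed the rule above because their day 3 minus day 0 differences were -0.51 and -0.60, between means that all lay below the negative controls. Saa3, a serum amyloid A made in inflamed tissue, and the monocyte attractants Ccl2 and Ccl7 rose more before day 3, with differences between the steps of -3.68, -3.86 and -2.86 (adjusted p = 0.0243, 0.0243 and 0.0181). With the replicate number as a block these 3 did not pass (adjusted p = 0.0547, 0.0713 and 0.0547), while C1qtnf3, Crabp2 and Mmp9 did (adjusted p = 0.0118, 0.0031 and 0.00139). Saa3, Ccl2 and Ccl7 also lost the call without day 3 replicate 1 or day 0 replicate 3. C1qtnf3 lost it without day 3 replicate 1, 2 or 3 (adjusted p = 0.265, 0.0693 and 0.057) and with the compared arrays alone (adjusted p = 0.0877). Mmp9 lost it without day 3 replicate 2 (adjusted p = 0.0693), and Crabp2 kept it in all 22 alternatives. Ccl2 stood at log2 8.34, 8.44, 8.89 and 7.33 at day 7, against log2 8.89, 8.73 and 8.37 at day 3, while its day 0 mean was 5.21. The groups overlapped, and the day 7 minus day 3 difference was -0.41 ± 0.38 (adjusted p = 0.999). Saa3 stood at log2 11.96, 12.56, 11.77 and 11.31 at day 7, against log2 11.72, 10.10 and 10.77 at day 3, with a day 0 mean of 6.14. Its difference of 1.04 ± 0.35 did not pass (adjusted p = 0.453). The beta-actin ratio was lower at day 0, at 2.73 to 3.5, and with that ratio as a covariate the steps differed for 3 genes, all of them with the larger rise after day 3.

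**Figure D3:**
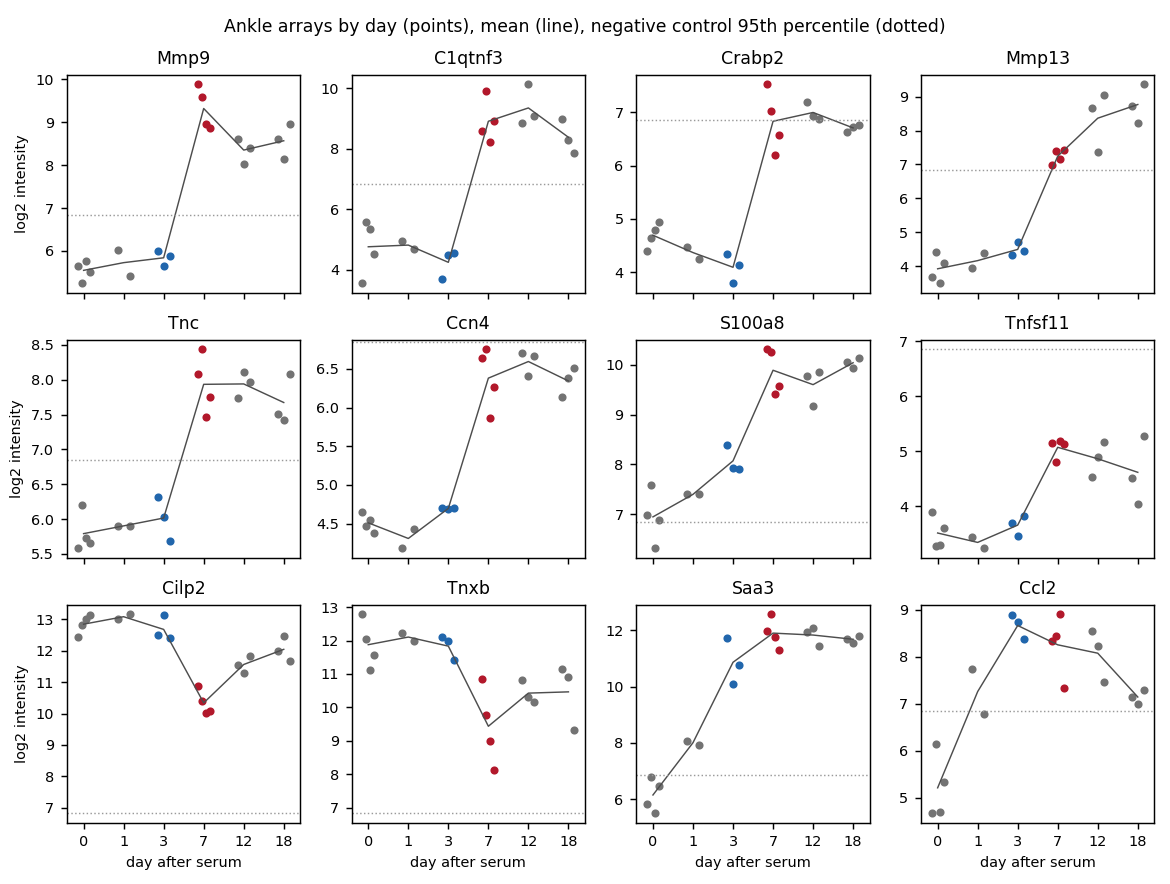
Log2 intensity of 12 genes in each ankle array by day (points, day 7 red, day 3 blue), with day means (line) and the negative control level of 6.85 (dotted). Days are spaced evenly and not to scale. The day 3 means of Mmp9, Tnc and Ccn4 lie within 0.5 of their day 0 means, while Saa3 and Ccl2 had reached means of 10.86 and 8.66 by then.

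The days after the peak showed where these levels went. Of all genes 0 passed the test of day 12 against day 7 (263 at an unadjusted p under 0.05), and 5 passed that of day 18 against day 7, all higher at day 18. Cilp2 and Sfrp4 were among these 5. The means of Cilp2 were log2 12.68 (day 3), 10.34 (day 7), 11.56 (day 12) and 12.04 (day 18), and it was higher at day 18 than at day 7 by 1.70 (adjusted p = 0.0133). Those of Sfrp4 were log2 8.42 (day 3), 7.2 (day 7), 7.84 (day 12) and 8.49 (day 18), and it was higher at day 18 by 1.3 (adjusted p = 0.0456). Those of Mmp13 were log2 4.49 (day 3), 7.25 (day 7), 8.37 (day 12) and 8.77 (day 18), and its day 18 minus day 7 difference of 1.53 did not pass (adjusted p = 0.198). C1qtnf3 averaged log2 8.91 at day 7, 9.35 at day 12 and 8.38 at day 18.

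Synovial fluid cells, which are known to be mostly leukocytes, gave a second view of the same days. The ankle and fluid changes differed for 59 genes of 8251 (0.715%), 14 higher and 45 lower in ankle, and for 102 with the replicate number as a block. Of the 42 ankle genes 10 were among the 59. S100a8 averaged log2 9.89 at day 7 and 8.07 at day 3 in ankle, against 12.11 and 12.07 in fluid cells, where the difference was 0.04. The difference of the changes was 1.78 ± 0.34 (adjusted p = 0.00562), and that of S100a9 was 1.90 ± 0.40 (adjusted p = 0.0138). C1qtnf3 averaged log2 8.91 at day 7 and 4.24 at day 3 in ankle, against 3.88 and 3.34 in fluid cells, below the negative controls there. Its changes differed by 4.14 ± 0.57 (adjusted p = 0.000157), and those of Acan by 2.00 ± 0.36 (adjusted p = 0.00339). The fluid means of Acan lay below the negative controls too. Mmp9 rose in both, to log2 9.32 in ankle against 5.84 at day 3, and to log2 10.31 in fluid against 8.77 at day 3, with changes that differed by 1.94 ± 0.40 (adjusted p = 0.00988). For Lamb2, Cilp2, Sfrp4 and Retn, which fell in ankle, the changes differed by -2.45, -2.28, -1.49 and -1.10 (adjusted p = 0.00988, 0.000254, 0.00586 and 0.0141), and in fluid cells Lamb2, Sfrp4 and Retn lay below the negative controls. Ptgfr was the 1 of the 10 that rose more in fluid cells, by 1.81 there and 0.69 in ankle (difference of the changes -1.12, adjusted p = 0.00898). Tnc and Mmp13 rose in fluid too, by 1.91 and 2.32, and their changes differed between ankle and fluid by 0.01 ± 0.37 and 0.44 ± 0.63 (adjusted p = 1 for both). The fluid means of Mmp13 lay below the negative controls on both days. Stromal transcripts were higher in fluid at day 7 as well, with a median log2 difference of 1.71 over the 27 matrix genes and 0.59 over 13 synovial fibroblast genes (0.29 and 0.07 in ankle), and 3.32 for Mmp3. Their part in the fluid changes of Tnc, Mmp13 and Ptgfr was not tested. The tissues were prepared differently, and the count was 30 without the fluid arrays of another preparation, 32 without ankle day 3 replicate 2, 33 with the compared arrays alone and 201 with array weights.

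**Figure D4:**
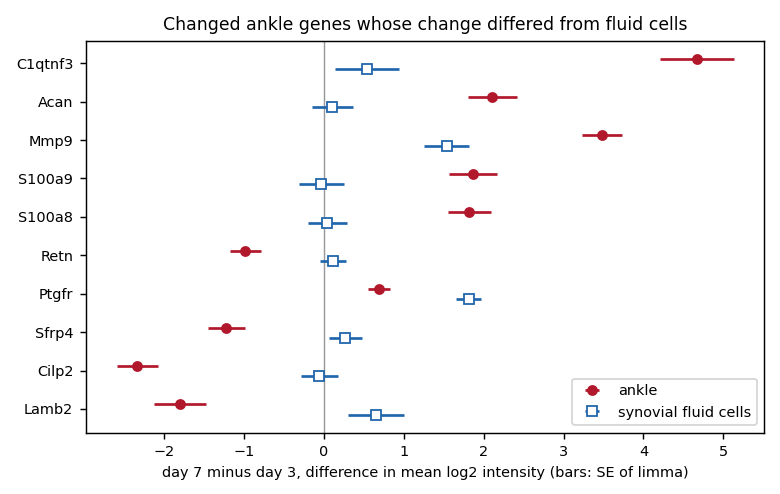
Day 7 minus day 3 differences in log2 intensity, ankle (red circles) and synovial fluid cells (blue squares), with the SE of limma, for the 10 changed ankle genes whose change differed between the tissues. C1qtnf3 stands at 4.67 in ankle and 0.54 in fluid cells, and Ptgfr is the gene with the larger rise in fluid cells.

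Of 43 gene lists, chosen with earlier results of these data known, most had no member past the threshold. Lists with 0 members past it included interferon response (13 measured, median log2 difference 0.08), complement (13, -0.32), MHC class II (9, 0.07), T cell (10, 0.00), B cell (11, -0.01), blood endothelium (13, 0.04) and skeletal muscle (18, 0.10). A day mean above the negative controls was found for 4 interferon response, 1 T cell and 2 B cell genes. The medians of these lists thus rest mostly on values below that level. In complement the C1q chains C1qa, C1qb and C1qc differed by -0.48, -0.40 and -0.38, and the inhibitor Serping1 by -0.90, none past the threshold (adjusted p from 0.517 to 0.999). Lyve1, a marker of lymphatic vessels and some macrophages, differed by -1.05, the mast cell enzyme Hdc by 1.00 and the antioxidant Gpx3 by -0.92 (log2), also without passing. The plasma ferroxidase Cp, of the local acute phase list, stood at log2 7.79, 7.41, 7.41 and 6.81 at day 7, against log2 9.02, 9.66 and 8.17 at day 3. Its groups did not overlap, and its difference of -1.60 ± 0.39 did not pass (adjusted p = 0.108). The summed intensity of 14 skin and hair genes was 1062.1 to 1192.5 in day 7 arrays, against 1194.9 to 1356.9 in day 3 arrays, and that of 8 erythroid genes 2767.7 to 5555, against 4809.7 to 6424.2. The part of skin, fat, muscle or blood content in the changes above was not tested.

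**Figure D5:**
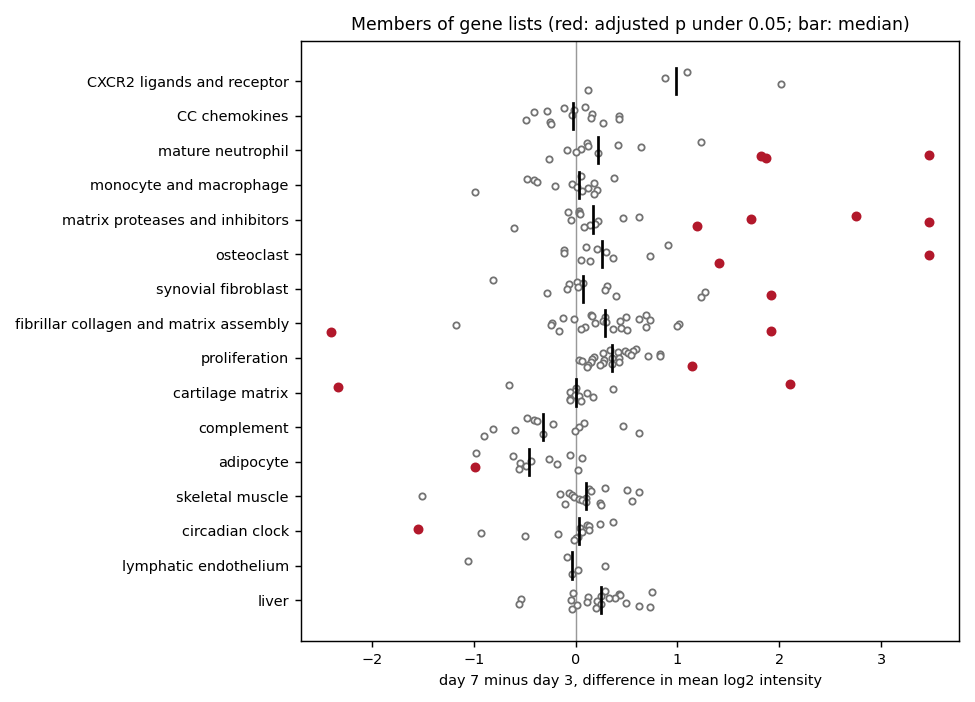
Day 7 minus day 3 differences in mean log2 intensity for the members of 16 gene lists (red filled points: adjusted p under 0.05; bar: median of the list). The 26 proliferation genes all lie above zero with 1 past the threshold, while matrix proteases have 4 members past it and a median of 0.17.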

How the data were processed

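Intensities of 12488 probe sets on 49 Affymetrix arrays were deposited by the authors as RMA values on the linear scale, per the submitters' processing notes. The RMA version was not given in the sources used here. Ankle RNA was extracted with SDS and urea per the labels' descriptions, or with Trizol per their protocol field. Of these probe sets 10833 had 1 symbol in the platform annotation, 396 had several and 1259 had none or were controls, of which there were 66. The deposited values held 0 missing values. Gene IDs were set against RefSeq (GRCm38.p6, for names and promoter windows), which lacked 16 of them and changed 0 symbols. Each of 8251 genes was represented by its brightest probe set, by mean over the 49 arrays (2073 genes had more than 1), and its deposited intensity was put on the log2 scale with no pseudocount and no filter. In 4873 genes neither day mean exceeded the negative controls. The number of arrays limits the precision.

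The 19 ankle arrays were fitted in R 4.3.3 with limma 3.58.1 (lmFit, eBayes with trend), 1 mean per day, and ankle and fluid arrays together for the comparison between tissues. P-values are two-sided and adjusted by Benjamini-Hochberg over all 8251 genes. A lower bound on a fold sets the brighter group's mean against, in each array of the dimmer group, the higher of the negative control level and the gene's own value.

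Named genes were the 12 largest rises and 12 largest falls past the threshold with groups that do not overlap and the higher mean above the negative controls, the list members past the threshold (or that of smallest p), the class changed after onset only, liver genes high in day 7 replicate 1, the largest differences from fluid, and Cxcl1, Cxcl2, Cxcl5, Cxcr2, Ccl2 and Saa3. The members, lists and tests were chosen with earlier results of these data known. Deviations from the day mean of same-numbered day 7 and day 3 arrays correlated at 0.72, 0.55 and 0.65 (other pairs -0.61 to 0.32). This link between the numbers comes from the data, not the labels. The main fits did not pair the arrays, and the replicate number entered as a block in an alternative fit only. On simulated data with 200 of 8251 genes changed, the test recovered 82% at a log2 change of 1 and 99% at 2, with 5.24% false among the calls. The simulated noise was independent between genes and arrays, so these rates do not cover deviations that arrays share across genes. Alternatives changed the normalization, filter, probe set rule, weights, arrays used and covariates.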

Additional observations from a re-analysis of the deposited data

Results flagged for a closer look

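In 20 of 174 groups of 4 arrays (each named gene at day 7 and at day 0), 1 array stood apart from the other three by the size of its gap; chance alone flags about 1 group in 20. Of these, 9 were day 7 replicate 1, with log2 intensities of 8.41 for Alb, 7.97 for Apoa1, 8.57 for Apoa2, 4.08 for Apob, 5.51 for Apoh, 5.57 for Fgg, 8.80 for Serpina1b, 10.17 for Serpina1c and 5.98 for Ambp. These 9 are liver genes that were named because that array was high, so their number is no independent support. Day 0 replicate 1 stood apart at 8.95 for Alb, 8.98 for Apoa1, 8.39 for Apoa2, 10.04 for Serpina1b, 10.79 for Serpina1c and 7.15 for Ambp, and also at 5.26 for Ltb and 4.84 for Cd247, a T cell receptor chain. Day 7 replicate 2 stood apart at 4.81 for Tnfsf11, 6.00 for Mest and 4.26 for Scg3, with Mest and Scg3 farther from day 3 than the other day 7 arrays and Tnfsf11 nearer to it.

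The change between day 7 and day 3 differed between ankle and fluid cells, by limma's test of the difference itself, for 13 named genes. It was higher in ankle for C1qtnf3 (4.14), Acan (2.00), Mmp9 (1.94), S100a9 (1.90), Ccl7 (1.83), S100a8 (1.78) and Ccl3 (1.34), and lower for Cp (-2.69), Lamb2 (-2.45), Cilp2 (-2.28), Sfrp4 (-1.49), Ptgfr (-1.12) and Retn (-1.10), all on the log2 scale. For Ccl7, the log2 difference was -0.25 in ankle, against -2.08 in fluid cells. The preparations of the tissues differed, and tissue and preparation cannot be told apart.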

How the results depend on the processing

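The count of 42 genes changed between the days was 27 with median centring of the arrays (19 higher, 8 lower), 131 with array weights, 15 with the spread taken from the 7 compared arrays alone (13 of these among the 42) and 73 without the arrays with liver transcripts. Leaving out 1 array gave 12 (without day 3 replicate 2) to 44, with 23 without day 7 replicate 2. The class changed after day 3 only held 1 gene, 2 with a floor at the 20th percentile, 8 with array weights, and 0 to 3 when 1 array was left out, 0 without day 3 replicate 2 and 3 without day 7 replicate 3. The difference of the steps passed for 6 genes, 41 with array weights, 2 with only the compared arrays, 3 with the beta-actin covariate, and 2 (without day 3 replicate 1 or 2) to 9 (without day 7 replicate 3) when 1 array was left out. The comparison of ankle with fluid passed for 59 genes, 201 with array weights, 33 with only the compared arrays, 30 without the fluid arrays of other preparation, and 32 (without ankle day 3 replicate 2) to 74 when 1 array was left out. The cause was not tested. With the replicate number as a block the counts were 55 (41 of these among the 42), 1, 4 (all higher) and 102. Among the 42 genes Ltb lost its call and no other did. The genes outside the 42 that gained a call included Cxcl5, Vcam1 and the keratinocyte gene Krtdap (adjusted p = 0.0357), which the rule had named. Of the 42, 35 passed without day 7 replicate 1, 39 without the liver arrays, 37 with the beta-actin covariate and 11 in every fit that left out 1 array. Signal limits 14 of the 42, whose means on both days lay below the negative control level.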
